A study of Mus musculus with 7 samples.

Results

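The genes described here encode ligands, receptors, a secreted modulator and intracellular mediators of the TGF-beta and BMP pathways: Bmp4, Bmp7, Tgfb2, Tgfbr1, Tgfbr2, Bmpr1a, Bmpr2, Twsg1, Smad1 and Smad4. They were taken as every probe set whose array annotation names 1 of these 10 genes, which gave 28 of the 22690 probe sets on the array, where 12394 genes are named in all. The genes were chosen by measured values, since the list was drawn up with the differences between exposed and control embryos on these arrays already known. Those differences are therefore given as a description, and no test of a member in that comparison is used.

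Gene expression was profiled in whole embryos of the FVB inbred strain at embryonic day 10.5 with 7 one-colour Affymetrix arrays (type 430A 2.0), each hybridized with a single embryo. The embryos were 2 diabetes-exposed embryos with a neural tube defect (NTD), 3 diabetes-exposed embryos with no malformation identified, and 2 control embryos from a normal pregnancy. The mother of the exposed embryos had been made diabetic with streptozotocin, a toxin of the insulin-producing beta cells, and dams entered the study only with blood glucose above 250 mg/dl, whereas the control mother was untreated. The 5 exposed embryos were littermates, and so were the 2 controls. The effect of diabetes therefore cannot be told apart from that of the litter, and p-values measure the spread between embryos of a litter.

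TGF-beta and BMP ligands are secreted dimers that bring type II and type I serine/threonine kinase receptors together. The type II receptor activates the type I receptor, which phosphorylates receptor Smads, and these enter the nucleus with Smad4 to regulate transcription. In the midgestation embryo the pathways act in dorsal patterning of the neural tube, in the neural crest, in the limb buds and in the forming valves and outflow tract of the heart.

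The lowest signals relative to controls belonged to the receptor Tgfbr1 and the modulator Twsg1, and for these genes the 250 bases upstream of the annotated transcription start are shown to place the results on the genes. The sequences come from RefSeq (GRCm38.p6), written 5′ to 3′ on the strand of the gene, for Tgfbr1 at chr4:47352972-47353221 on the plus strand, ahead of the first annotated start, and for Twsg1 at chr17:65951188-65951437 on the minus strand. Capitals mark matches, on either strand, to the GC box (GGGCGG) or to the core of the Smad element (CAGAC).
Tgfbr1: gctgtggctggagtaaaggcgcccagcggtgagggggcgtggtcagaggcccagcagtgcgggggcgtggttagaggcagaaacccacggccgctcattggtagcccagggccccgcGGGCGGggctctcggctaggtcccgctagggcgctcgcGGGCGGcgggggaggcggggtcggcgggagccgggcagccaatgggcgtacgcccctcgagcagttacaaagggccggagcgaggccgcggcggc
Twsg1: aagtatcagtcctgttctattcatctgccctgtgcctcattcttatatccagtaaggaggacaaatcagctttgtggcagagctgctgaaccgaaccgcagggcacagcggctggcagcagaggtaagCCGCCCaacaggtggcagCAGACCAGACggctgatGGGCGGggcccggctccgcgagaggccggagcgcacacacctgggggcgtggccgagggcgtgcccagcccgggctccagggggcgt
The Tgfbr1 window shown held 2 GC boxes and no Smad core, with a GC content of 74.8%. A second Tgfbr1 window, at chr4:47385966-47386215 and not shown, held no GC box and 1 Smad core, with a GC content of 52.8%. Twsg1 held 2 GC boxes and 2 Smad cores that lie side by side, with a GC content of 64.4%. The core of the hypoxia element bound by HIF1 (ACGTG, which is also part of the E-box CACGTG) matched in none of these windows. Promoters were listed for 8 of the 10 genes, in 9 windows. A GC box was present in 6 of these 9 windows, a Smad core in 4 and an HIF1 core in 2, against 32.7%, 42.2% and 16.6% of all 32851 promoter windows of that length. Such matches describe the letters of the sequence and were not tested as binding sites.

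The values are MAS5 signals, linear intensities that combine the perfect-match and mismatch probes of a probe set, scaled by the authors so that the trimmed mean was 500.2 on each array. A probe set entered the fit if its signal reached the 40th percentile of the array, 131 to 146, in 2 or more embryos. This left 14554 probe sets, among them 23 of the 28 probe sets of TGF-beta and BMP genes. The 5 others, of Tgfbr2, Bmpr2, Twsg1 and Bmp7, are given as signals only. Signals of different probe sets cannot be ranked against each other, because each has probes of its own. The name of a probe set that ends in _a_at marks probes that match several transcripts of 1 gene, and _s_at marks probes shared among transcripts that can belong to different genes.

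Other features of the embryos differed along with the groups. The summed signal of 10 neural tube markers was 7524 to 8856 in exposed embryos and 9722 to 9878 in controls, and that of 5 primitive red cell markers was 64028 to 83398 in exposed embryos and 51887 to 54080 in controls. Each gene was represented by its brightest probe set. The neural tube gap came from Fabp7 (1080.2 to 1845 in exposed embryos and 2451 to 2483 in controls) and Dcx (444 to 598 in exposed embryos and 894 to 914 in controls), and the sum of the other 8 genes overlapped, at 5651 to 6604 in exposed embryos and 6325 to 6533 in controls. For 6 somite markers the sum was 1699.9 to 2074 in exposed embryos and 1455 to 1482 in controls, a gap that came from Meox1 (913 to 1099.8 in exposed embryos and 605 in both controls), and the sum of the other 5 overlapped, at 771 to 1021 in exposed embryos and 850 to 876 in controls. The median log2 difference was -0.07 over the 14 tested probe sets of the neural tube list and -0.04 over the 5 of the somite list. The sums without these genes were added after the values were seen. Summed signals of 6 heart muscle markers also overlapped (8830.0 to 10569 in exposed embryos and 8588 to 8869 in controls). Exposed embryo 1 without NTD stood apart by 13 markers of yolk sac endoderm and liver. Their sum was 29766 there, 1435 to 2559 in the other exposed embryos and 3531 to 3584 in controls. The liver marker Alb was not raised, at 226 there, 128 to 243 in the other exposed embryos and 314 and 426 in controls. Each of the other markers had its highest signal there. The sexes were not balanced, since Y-linked Eif2s3y had a signal of 245 in exposed embryo 2 with NTD, 0.549 to 2.76 in the other 4 exposed embryos, and 203 and 227 in the controls. The part of these features in the values below was not tested, except where a value without an embryo is given.

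Among the ligands, no probe set that entered the fit separated the groups. Bmp4, a ligand of the surface ectoderm, mesoderm and dorsal midline, was measured by 1 probe set (1422912_at), with signals of 693 and 735 in exposed embryos with NTD, 691, 686 and 979 in exposed embryos without NTD, and 703 and 754 in controls. The control values lay within the range of the exposed embryos, and the log2 difference between exposed and control embryos was 0.04 (SE 0.16).

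Bmp7, a ligand required for kidney and eye development in the mouse, had slightly higher means in exposed embryos on both of its probe sets in the fit. Probe set 1418910_at had signals of 225 and 241 in exposed embryos with NTD, 262, 182 and 257 in exposed embryos without NTD, and 180.1 and 184 in controls. Exposed embryo 2 without NTD fell between the controls, and the other 4 exposed embryos lay above them, with a log2 difference of 0.35 (SE 0.19). Probe set 1435479_at, with 423 to 759.5 in exposed embryos and 449 and 451 in controls, gave a close value of 0.32 (SE 0.20) and also overlapped. The third probe set (1432410_a_at) was dim, at 13.4 to 96.0 in exposed embryos and 82.3 and 106 in controls.

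Tgfb2, the TGF-beta ligand required for heart and craniofacial development in the mouse, overlapped between the groups on all 3 of its probe sets. The one of smallest p (1423250_a_at) had 287 and 229 in exposed embryos with NTD, 288, 321 and 238 in exposed embryos without NTD, and 321 and 308 in controls. Exposed embryo 2 without NTD was level with the higher control, and the log2 difference was -0.22 (SE 0.17). The other probe sets differed by 0.00 (SE 0.18) and -0.08 (SE 0.26).

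Tgfbr1, the type I receptor of TGF-beta, had lower signals in all 5 exposed embryos on 2 of its 3 probe sets, and on the third the groups overlapped. On 1420893_a_at the signals were 176 and 137 in exposed embryos with NTD, 121, 90.6 and 145 in exposed embryos without NTD, and 474 and 399.6 in controls. Every exposed embryo lay far below the lower control. The mean was 134 ± 31.6 in exposed embryos (SD, n = 5) and 437 ± 52.8 in controls (SD, n = 2), with a log2 difference of -1.73 (SE 0.25), and control signals were 3.26 times those of exposed embryos. In bulk RNA of whole embryos, fewer cells that express a gene and less of its RNA per cell cannot be told apart.

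The second probe set of Tgfbr1 (1420894_at) had signals of 157 and 106 in exposed embryos with NTD, 38.3, 71.2 and 97.2 in exposed embryos without NTD, and 366 and 273 in controls. Both embryos with NTD lay between the other exposed embryos and the controls. The mean was 93.9 ± 44.0 in exposed embryos (SD, n = 5) and 319.6 ± 66.0 in controls (SD, n = 2), a log2 difference of -1.90 (SE 0.46). This probe set reached the 40th percentile only in both controls and in exposed embryo 1 with NTD.

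The third probe set of Tgfbr1 (1420895_at) had signals of 2235 and 2039 in exposed embryos with NTD, 1598, 2458 and 2027 in exposed embryos without NTD, and 2304 and 2288 in controls. One exposed embryo lay above both controls and 4 lay below them, and the log2 difference was -0.16 (SE 0.16). Within an embryo, the log2 signal of 1420893_a_at minus that of 1420895_at was -4.76 to -3.66 in exposed embryos and -2.52 to -2.28 in controls, so that the 2 probe sets of this receptor differed unequally between the groups. Where each probe set lies along the Tgfbr1 transcripts was not analysed here.

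**Figure D1:**
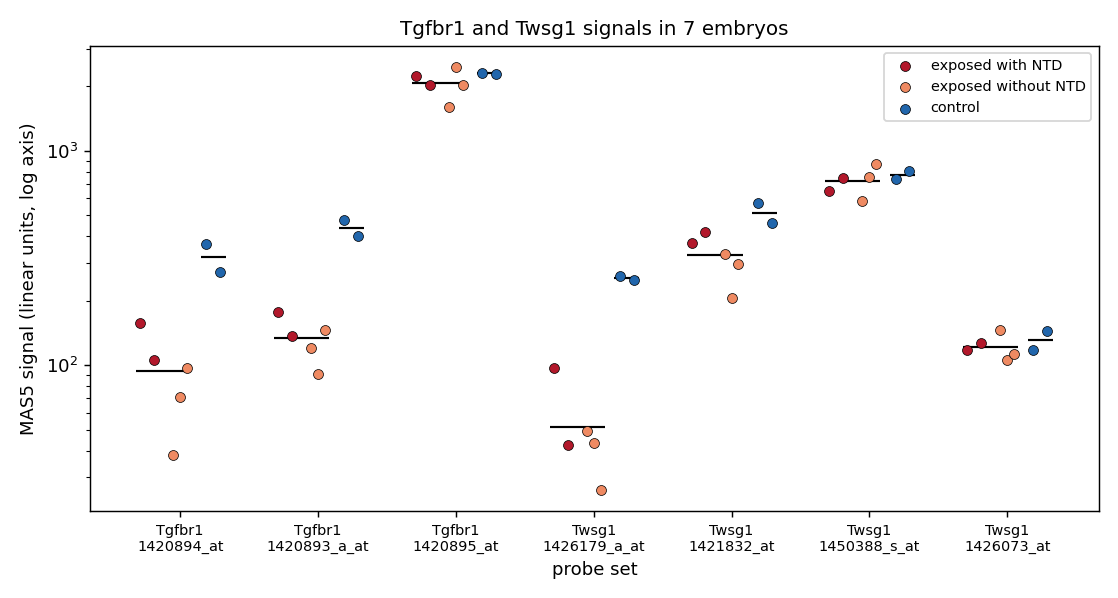
Signals of the 3 Tgfbr1 and 4 Twsg1 probe sets (x axis) on a log axis of MAS5 signal, with 1 point per embryo for exposed embryos with NTD, exposed embryos without NTD and controls, and horizontal lines at the mean of the 5 exposed embryos and of the 2 controls. On Tgfbr1 1420893_a_at the exposed embryos sit between 90.6 and 176, all below the controls at 399.6 and 474, whereas on 1420895_at the groups overlap.

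The type II receptor Tgfbr2, which phosphorylates Tgfbr1, overlapped between the groups. Its probe set in the fit (1426397_at) had signals of 562 and 512 in exposed embryos with NTD, 657, 476 and 608 in exposed embryos without NTD, and 557 and 564 in controls. The exposed embryos spread to both sides of the controls, with a log2 difference of 0.00 (SE 0.15). The other probe sets of Tgfbr2 were dim in all embryos, at 5.03 to 41.1 and 10.4 to 15.5.

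Bmpr1a, a type I receptor of BMPs, had lower signals in all 5 exposed embryos than in both controls on 4 of its 5 probe sets, but by small margins. On 1425493_at the signals were 277 and 313 in exposed embryos with NTD, 303, 284 and 389 in exposed embryos without NTD, and 433 and 411 in controls. Exposed embryo 3 without NTD came closest to the controls, and the log2 difference was -0.44 (SE 0.16).

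Other Bmpr1a probe sets gave differences of a similar size. On 1425494_s_at, whose probes can match several transcripts, the signals were 388 and 424 in exposed embryos with NTD, 266, 378 and 412 in exposed embryos without NTD, and 593 and 433 in controls. The controls differed more from each other there than the lower control did from the nearest exposed embryo, and the log2 difference was -0.46 (SE 0.20). Probe set 1425491_at had 285 and 370.5 in exposed embryos with NTD, 266, 277 and 373 in exposed embryos without NTD, and 422 and 396 in controls, a log2 difference of -0.40 (SE 0.18). On 1425492_at all exposed embryos were again below both controls (-0.25, SE 0.16), and 1451729_at overlapped (0.08, SE 0.21).

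Bmpr2, the type II receptor of BMPs, was measured by 1 probe set (1419616_at) that did not enter the fit, since only control 1 reached the 40th percentile. Its signals were 80.9 and 83.9 in exposed embryos with NTD, 71.2, 121 and 112 in exposed embryos without NTD, and 174 and 134 in controls. All exposed embryos were below both controls, and the mean log2 signals differed by -0.73.

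**Figure D2:**
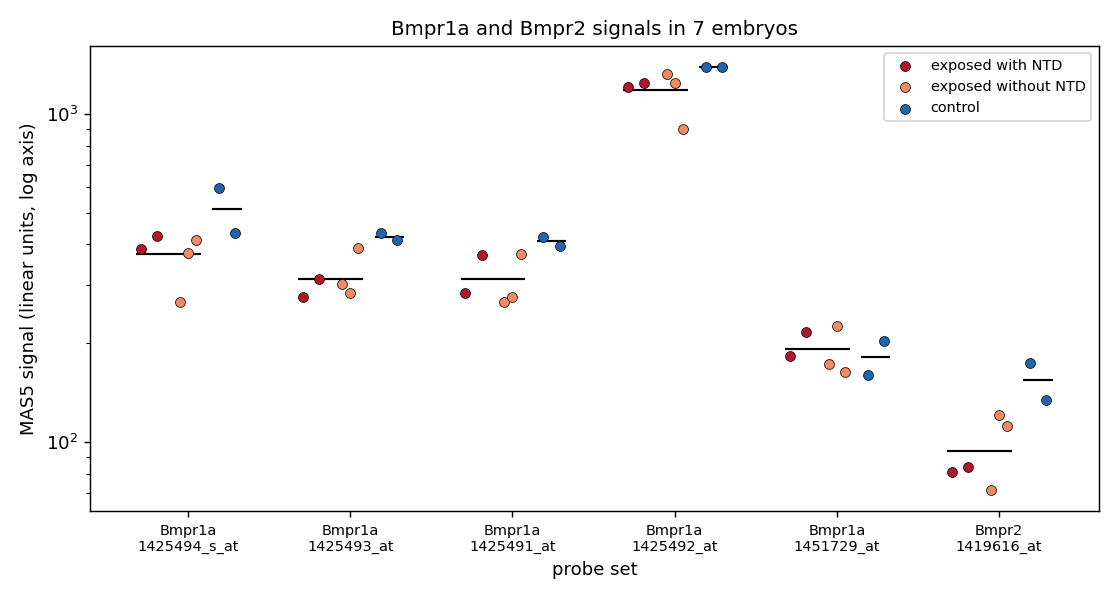
Signals of the 5 Bmpr1a probe sets and of the Bmpr2 probe set (x axis) on a log axis of MAS5 signal, with 1 point per embryo and horizontal lines at the mean of the 5 exposed embryos and of the 2 controls. The exposed embryos lie below both controls on 4 Bmpr1a probe sets and on Bmpr2, and overlap them on Bmpr1a 1451729_at.

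Twsg1 encodes twisted gastrulation, a secreted protein that binds BMPs and acts with chordin to modulate their activity outside the cell. Its probe set 1426179_a_at had signals of 97.1 and 42.4 in exposed embryos with NTD, 49.4, 43.6 and 26.2 in exposed embryos without NTD, and 259.6 and 249 in controls. The 2 controls were nearly equal and every exposed embryo was far below them. The mean was 51.7 ± 26.8 in exposed embryos (SD, n = 5) and 254 ± 7.70 in controls (SD, n = 2), a log2 difference of -2.43 (SE 0.50), and control signals were 4.91 times those of exposed embryos. This probe set entered the fit only through the controls, and the exposed signals lay around the 20th percentile of the arrays (41.9 to 51.7), so that the size of the difference is uncertain.

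On Twsg1 1421832_at the signals were 373 and 419.9 in exposed embryos with NTD, 329.7, 207 and 297 in exposed embryos without NTD, and 571 and 459.7 in controls. The groups were in the same order without overlap, and the embryos with NTD were nearest to the controls, but the log2 difference was smaller, at -0.69 (SE 0.24).

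The 2 other Twsg1 probe sets did not separate the groups. The signals on 1450388_s_at were 652 and 747 in exposed embryos with NTD, 586, 754 and 869 in exposed embryos without NTD, and 739.5 and 809 in controls, a log2 difference of -0.11 (SE 0.16). Probe set 1426073_at, which did not enter the fit, had 117 and 127 in exposed embryos with NTD, 146, 106 and 113 in exposed embryos without NTD, and 118 and 144 in controls. Within an embryo, the log2 signal of 1426179_a_at minus that of 1450388_s_at was -5.05 to -2.75 in exposed embryos and -1.70 to -1.51 in controls.

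Smad1, a receptor Smad of the BMP pathway, overlapped between the groups on both probe sets. On 1416081_at the signals were 254 and 143 in exposed embryos with NTD, 218, 27.7 and 201 in exposed embryos without NTD, and 264 and 198 in controls. Exposed embryo 2 without NTD was far below all others, and the log2 difference of -0.76 had a large error (SE 0.70), with -0.19 without that embryo. The second Smad1 probe set (1448208_at) had 628 to 888 in exposed embryos and 706 and 781 in controls, with a log2 difference of -0.04 (SE 0.15).

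Smad4, the common partner of the receptor Smads, was bright in all embryos and differed little. On 1422487_at the signals were 2092 and 2208 in exposed embryos with NTD, 2257, 2248 and 2106 in exposed embryos without NTD, and 2019 and 1852 in controls. All exposed embryos were above both controls, though the log2 difference was small, at 0.17 (SE 0.11). The 2 other Smad4 probe sets overlapped and differed by -0.16 (SE 0.12) and 0.03 (SE 0.10).

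Taking the 23 probe sets in the fit as a group, 16 had a negative and 7 a positive log2 difference, with a median of -0.16, against a median of 0.00 over all 14554 probe sets tested. In the limma fit with Benjamini-Hochberg adjustment over all of these, 1 of the 23 was called lower in exposed embryos (Tgfbr1 1420893_a_at), against 0.0618% of all probe sets, and 0 were called higher, against 0.11%. At an unadjusted p under 0.05, 7 were lower, against 8.52% of all, and 0 were higher, against 7.63%. All exposed embryos were below both controls for 8 of the 23, against 13.4% of all, and above both for 1, against 11.4%. A looser form of the study's criteria, without the false discovery rate and detection-call steps of the methods (a ratio of mean signals beyond 2-fold with an unadjusted p under 0.05 in the methods' t-test and in a Cyber-T style test), was met in the lower direction by 3 of the 23, against 0.708% of all. With Benjamini-Hochberg adjustment, the methods' t-test called 0 of the 23. Those 3 were Tgfbr1 1420893_a_at and 1420894_at and Twsg1 1426179_a_at. Because the genes were listed with these differences known, and Twsg1 1426179_a_at entered through its control signals alone, nothing is read from these counts.

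**Figure D3:**
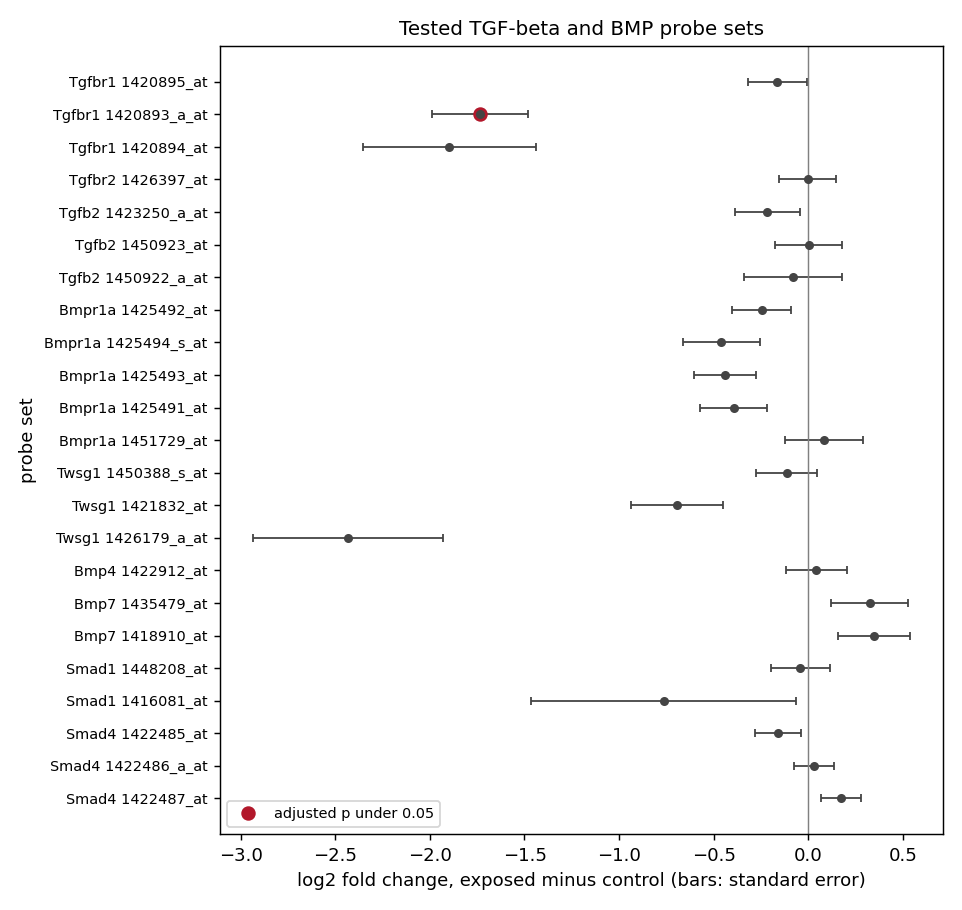
Log2 fold change, exposed minus control, of the 23 probe sets in the fit (x axis, bars show the standard error), with the probe set under an adjusted p of 0.05 in red. Tgfbr1 1420893_a_at and 1420894_at and Twsg1 1426179_a_at lie at -1.73, -1.90 and -2.43, whereas Tgfbr1 1420895_at and Twsg1 1450388_s_at lie at -0.16 and -0.11.

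The call of Tgfbr1 1420893_a_at is part of what chose the gene, and nothing is read from it. It was lost without exposed embryo 3 without NTD (-1.77), without exposed embryo 2 with NTD (-1.75), without control 1 (-1.61) and without control 2 (-1.86). Exposed embryo 1 without NTD stood apart by the sum of yolk sac endoderm and liver markers. With this embryo left out, the difference was -1.71 for Tgfbr1 1420893_a_at and -2.45 for Twsg1 1426179_a_at. Exposed embryo 2 with NTD had Y-linked transcripts, as both controls did. Its signals were 137 and 106 on the 2 lower Tgfbr1 probe sets and 42.4 on Twsg1 1426179_a_at, all below both controls. It was the only such exposed embryo, and the part of sex in these values was not tested.

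The span between the highest and the lowest log2 difference of a gene was 2.32 for Twsg1 and 1.73 for Tgfbr1. The first rests on 1426179_a_at, which entered the fit through its control signals alone, and was 0.58 without that probe set. The second was 1.57 without 1420894_at, which entered through both controls and 1 exposed embryo. The median over the 3144 genes with 2 or more probe sets tested was 0.29. The span was 0.72 for Smad1, 0.54 for Bmpr1a, 0.33 for Smad4, 0.22 for Tgfb2 and 0.02 for Bmp7. The choice of the genes used the same differences, so the spans of Tgfbr1 and Twsg1 are a description from which nothing is read.

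**Figure D4:**
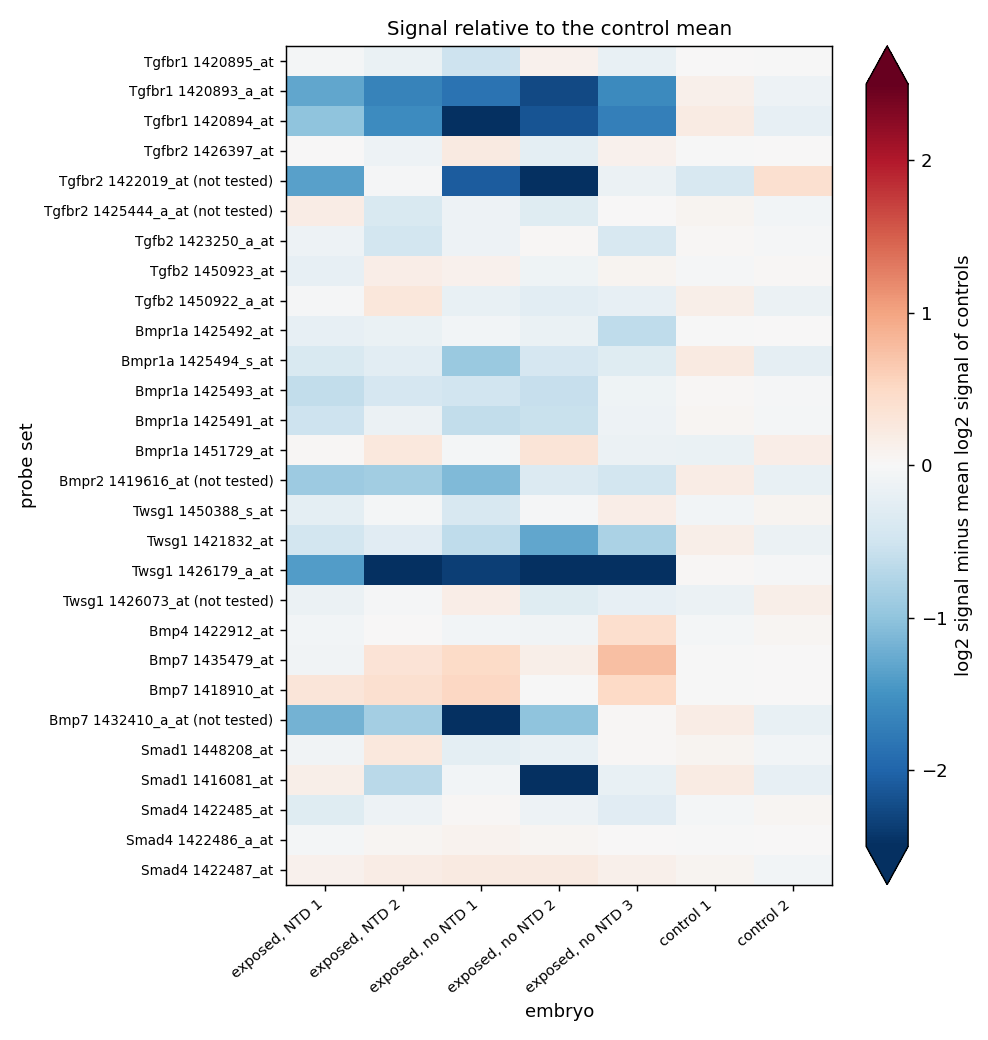
Log2 signal of each of the 28 probe sets (rows) in each of the 7 embryos (columns, exposed embryos with NTD, exposed embryos without NTD, then controls), minus the mean log2 signal of the 2 controls. Blue cells are below and red cells above the control mean, colours end at 2.5 in either direction, and rows that did not enter the fit are marked. The lower Tgfbr1 and Twsg1 rows are blue in all 5 exposed embryos, and the Tgfbr2, Bmp4 and Smad4 rows of bright signal are pale.

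Embryos with NTD were compared with exposed embryos without NTD in a fit of all 3 groups, to ask whether the genes differed with the malformation among littermates. limma called 0 of the 23 probe sets, and 0% of all 14554. At an unadjusted p under 0.05 it found 2 of the 23, against 3.02% of all. Both were higher in embryos with NTD. Tgfbr1 1420894_at was 1.01 higher on the log2 scale (SE 0.41, unadjusted p = 0.0360 from limma, adjusted p = 0.999) and Twsg1 1421832_at was 0.54 higher (SE 0.22, unadjusted p = 0.0344 from limma, adjusted p = 0.999). On both probe sets the 2 embryos with NTD had signals above those of all 3 exposed embryos without NTD and below those of both controls. On Tgfbr1 1420894_at, exposed embryo 1 without NTD had 38.3, below the 20th percentile of its array (51.7), and exposed embryo 1 with NTD was the only 1 of the 5 exposed embryos to reach the 40th percentile. The difference on that probe set was 0.63 without exposed embryo 1 without NTD (unadjusted p = 0.0793 from limma) and 0.72 without exposed embryo 1 with NTD (unadjusted p = 0.208 from limma), and the unadjusted p was 0.0606 without control 1 and 0.0546 without control 2. For Twsg1 1421832_at it was 0.34 without exposed embryo 2 without NTD (unadjusted p = 0.0908 from limma), and 0.62 and 0.45 without exposed embryos 1 and 2 with NTD (unadjusted p = 0.0628 and 0.161 from limma).

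The other tested probe sets of these genes differed between embryos with and without NTD by 0.41 (SE 0.26) for Tgfbr1 1420893_a_at, 0.10 (SE 0.18) for Tgfbr1 1420895_at, 0.74 (SE 0.53) for Twsg1 1426179_a_at and -0.06 (SE 0.18) for Twsg1 1450388_s_at, and none of them passed an unadjusted p under 0.05. Relative to the same controls, Tgfbr1 1420893_a_at differed by -1.49 (SE 0.28) in embryos with NTD and by -1.90 (SE 0.26) in exposed embryos without NTD. Twsg1 1426179_a_at differed by -1.99 (SE 0.58) in embryos with NTD and by -2.73 (SE 0.53) in exposed embryos without NTD. Over the 23 probe sets, the differences ran between -0.33 for Bmp7 1435479_at and 1.01, with 13 positive and 10 negative. With 2 embryos in one group and 3 in the other, the smallest p of an exact two-sided permutation test is 0.1, so that no single value could pass a threshold of 0.05 by that test.

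The wider pathway was followed with 105 further genes, of which 89 were on the array and 65 had a tested probe set, 100 probe sets in all. limma called 0 of the 100 in exposed embryos against controls. At an unadjusted p under 0.05, 11 were lower and 11 were higher, and 14 lay below and 13 above both controls in all exposed embryos, near the shares given above for all probe sets. Their median log2 difference was 0.02. The counts of single lists below stand beside the same shares at an unadjusted p under 0.05, 8.52% lower and 7.63% higher. The lists are small, and nothing is read from their counts.

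Of the other ligands, 9 of 12 probe sets had a negative and 3 a positive difference, and 1 passed an unadjusted p under 0.05. This was Tgfb1, at 257 and 287 in exposed embryos with NTD, 254, 277 and 236 in exposed embryos without NTD, and 215 and 186 in controls (0.39, SE 0.16). Gdf10, a ligand related to BMPs, had the next smallest p, with a log2 difference of -0.79 (SE 0.36). Its probe set reached the 40th percentile only in both controls and in exposed embryo 2 with NTD.

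The other receptors and co-receptors had a median of 0.18 over 11 probe sets, with 2 higher and 0 lower at an unadjusted p under 0.05. Acvr2b, a type II receptor of activins, had 1326 and 1356 in exposed embryos with NTD, 1688, 1649 and 1631 in exposed embryos without NTD, and 1023 and 1046 in controls. The groups did not overlap and the embryos with NTD were between the others, with a log2 difference of 0.56 (SE 0.14, adjusted p = 0.106 from limma). Endoglin (Eng), a co-receptor of endothelium, differed by 0.51 (SE 0.16) on 1417271_a_at and by 0.02 on its other probe set.

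The other Smads had a median of -0.51 over 7 probe sets, with 3 lower and 1 higher at an unadjusted p under 0.05, against 8.52% and 7.63% of all probe sets. The lower ones were 1451873_a_at of Smad5 and both probe sets of Smad3. Smad5, which like Smad1 carries BMP signals, had 288 and 226 in exposed embryos with NTD, 178, 215 and 256 in exposed embryos without NTD, and 384 and 399 in controls on 1451873_a_at. All exposed embryos were below both controls, and the log2 difference was -0.77 (SE 0.19, adjusted p = 0.109 from limma). Its other probe set (1421047_at) overlapped, with 664 in exposed embryo 1 with NTD above 635 in control 2, and differed by -0.56 (SE 0.27). Smad3, a receptor Smad of TGF-beta, differed by -1.21 (SE 0.49) on 1450471_at and by -0.51 (SE 0.21) on 1450472_s_at. Besides both controls, only exposed embryo 1 with NTD and exposed embryo 2 without NTD reached the 40th percentile on 1450471_at. The size of that difference is therefore uncertain.

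Secreted antagonists and extracellular modulators had a median of 0.24 over 8 probe sets, with 1 higher and 0 lower at an unadjusted p under 0.05. Ltbp4, which holds latent TGF-beta in the matrix, was the 1 with 0.45 (SE 0.20), and the activin antagonist Fst differed by 0.35 (SE 0.27). Intracellular regulators and kinases had a median of 0.05 over 29 probe sets, with 1 higher and 4 lower. The 4 lower ones were 2 probe sets of Wwp1, a ubiquitin ligase (-0.77, SE 0.19, on 1427097_at), and 2 of Map3k7, the kinase TAK1 (-0.39, SE 0.14, on 1425795_a_at). The second of Map3k7, 1426627_at (-0.65, SE 0.26), entered the fit through its control signals alone. Nothing is read from its place among the lower ones. Another probe set of each gene, 1452299_at of Wwp1 and 1455441_at of Map3k7, had a positive difference, at 0.16 and 0.15. A further Map3k7 probe set, 1449693_at, differed by 0.10 (SE 0.28) and overlapped between the groups.

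Known transcriptional targets of the pathways were split, with 5 higher and 4 lower of 33 probe sets at an unadjusted p under 0.05 and a median of 0.01. Tgfbi, a matrix protein induced by TGF-beta, differed by -0.67 (SE 0.19), -0.51 (SE 0.17), -0.12 and -0.10 on its 4 probe sets. Id4, an inhibitor of differentiation and a BMP target, differed by -0.61 (SE 0.18), -0.64 (SE 0.33) and 0.15 on its 3 probe sets.

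The patterns most like that of Tgfbr1 1420893_a_at were named by Pearson's r of log2 signals over the 7 embryos, among 13397 tested probe sets of other genes with 1 symbol. They belonged to Xiap (r = 0.994), Ap3m1 (0.990), Dicer1 (0.990), Sel1l (0.988) and Ciao1 (0.988), and 82 probe sets had an r above 0.95. For Twsg1 1426179_a_at they belonged to E2f3 (r = 0.991), Usp12 (0.989), Ngdn (0.984), Phip (0.983) and Lin7c (0.982), with 47 above 0.95. These values are a description without a test, since the points share their arrays and litters and the gap between exposed and control embryos enters every r.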

How the data were processed

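RNA of 7 whole embryos was labelled with biotin and hybridized, embryo by embryo, to Affymetrix 430A 2.0 arrays. Deposited intensities are on a linear scale and had been computed as signals with MAS5 (version not given in the sources used here) before scaling per array. Its detection calls were not used. From 22690 probe sets 64 controls were removed. Annotation gave 1 symbol to 20393 probe sets, several to 691 and none to 1606, and only those with 1 symbol could be members.

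Before log2 transformation, a floor of 1 was set. A probe set was tested if it reached the 40th percentile of its array in at least 2 embryos (14554). Models were fitted with limma 3.58.1 (R 4.3.3), using a mean-dependent prior, for the 5 exposed embryos against the 2 controls, and with 3 groups for embryos with NTD against exposed embryos without NTD. A Benjamini-Hochberg adjusted p under 0.05 made a call. A looser form of the study's criteria was computed from log2 signals, with the methods' t-test left unadjusted and a Cyber-T style regularized test (window of 101 and confidence of 10). The false discovery rate that the methods set for the t-test, and their detection-call filter, were not part of it. Exact two-sided permutation of 5 and 2 embryos has 21 splits, with a smallest p of 0.0476. Precision is limited by the number of arrays. Tested on simulated data of the same layout, limma recovered 50% of the 2-fold changes and 90% of the 4-fold changes (100 probe sets of each size), with 3 false calls among 143.

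The members, and the lists of other pathway genes and markers, were chosen with earlier results of these data known. Named were all Tgfbr1 and Twsg1 probe sets, for each other member the one of smallest p and further ones with an unadjusted p under 0.05, the 2 genes of smallest p in each wider list, and the 5 genes of most similar pattern. As alternatives, the fits were repeated after quantile normalization or median centring, with another floor, offset or filter, without the trend, with array weights, with a replicate block, without the embryos with NTD, and with single embryos left out. Other software was Python 3.11.15, pandas 2.3.3, NumPy 2.4.6 and Matplotlib 3.10.9. Pooled arrays of the second experiment were not analysed here.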

Additional observations from a re-analysis of the deposited data

Results flagged for a closer look

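By Dixon's criterion on the log2 scale, 1 of the 5 exposed embryos lay far from the others in 4 of the 23 probe sets. The nominal rate of the criterion is about 1 in 20. The share over all tested probe sets was not computed, so the count is not read as a trait of these genes. Smad1 1416081_at had a signal of 27.7 in exposed embryo 2 without NTD, against 143 to 254 in the other 4 exposed embryos. Bmp4 1422912_at had 979 in exposed embryo 3 without NTD, against 686 to 735 in the others. Bmpr1a 1425492_at had 897 in exposed embryo 3 without NTD, against 1208 to 1321 in the others, and Bmpr1a 1425494_s_at had 266 in exposed embryo 1 without NTD, against 378 to 424 in the others. For Bmpr1a the embryo that stood apart differed between its probe sets.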

How the results depend on the processing

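In exposed against control embryos, 1 of the 23 probe sets was called. The count was the same with quantile normalization, median centring, a floor of 16 or only exposed embryos without NTD. Because the genes were listed with these differences known, nothing is read from whether a call held. With an offset of 50 there were 2 calls, with array weights 3, and 0 with no filter, with the filter in all 7 arrays, with no trend and with the methods' t-test after Benjamini-Hochberg adjustment, which called 7 unadjusted. Leaving out each embryo gave 0 to 2 calls, with 0 without exposed embryo 3 without NTD, exposed embryo 2 with NTD or either control, where the lone control is assumed to vary like the exposed embryos, and 2 without exposed embryo 1 with NTD. The median log2 difference of the members was -0.078 with the filter in all 7 arrays, -0.12 with array weights, and -0.18 to -0.073 with each embryo left out. Array weights called 5 of the other pathway probe sets, 1 higher and 4 lower, and the other settings 0. Of all probe sets, 25 were called (16 higher), against 18 with quantile normalization (14 higher), 50 with the offset, 8 with no filter, 10 with no trend, 491 with array weights, and 0 to 58 with each embryo left out. With the filter in all 7 arrays, 18 member probe sets were tested. Tgfbr1 1420893_a_at and 1420894_at and Twsg1 1426179_a_at were not among them, so they could not be called there. The cause of the other changes was not tested. For Twsg1 1426179_a_at the offset gave a log2 difference of -1.62.

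Replicate numbers gave no sign of pairing, with correlations of -0.25 to 0.03 between the deviations of equally numbered embryos. In a group of 2 embryos the deviations mirror each other, so these values cannot exclude pairing. Exposed and control embryos came from different mothers. With the number as a replicate block, 0 members and 0 of all probe sets were called. Only exposed embryo 3 without NTD has the number 3, so the block gave the log2 differences of the fit without it. For Tgfbr1 1420893_a_at the value was -1.77 in both. In embryos with against without NTD, 0 members were called in each setting run.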
